A study of Mus musculus with 8 samples.

Results

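Integrins are the receptors that tie cells to their surroundings: each is a pair of an alpha and a beta subunit that spans the membrane, binds a matrix protein or another cell outside and, through talin and kindlin, gathers a plaque of adaptor proteins that links to actin inside. The pair decides the ligand, so that some integrins hold collagen, some laminin in basement membranes, some the RGD tripeptide of fibronectin and related proteins, and some are found on leukocytes and platelets. In a palatal shelf, mesenchyme sits in fibronectin and collagen, and the overlying epithelium is anchored to its basement membrane. YAP and TAZ are transcriptional co-activators that bind DNA through TEAD factors and respond to the pull that adhesions and actin exert on the cell.

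The genes described are 36, of 55536 in the deposited table: 26 integrin subunits (18 alpha and 8 beta) and 10 focal adhesion adaptors. They were taken by symbol, with earlier results of these data known. Itgam stood on 2 rows, of which 1 had 0 reads in every library, so the members covered 37 rows. The study sequenced RNA of mouse palates at E14.5: the posterior shelves, right and left together, were taken before elevation and held both epithelium and mesenchyme. There were 4 mutant libraries, genotype Yapfl/fl;Tazfl/fl;Col2Cre, and 4 control libraries, genotype Yapfl/fl;Tazfl/fl without Cre, so both groups carry the floxed alleles. Col2Cre is a Cre driven by Col2a1 regulatory sequence, a gene of cartilage, and cells in whose lineage it was never active keep their floxed alleles. The labels do not tie each library to an animal of its own, so the p-values reflect only how far these samples spread, and that spread may be technical. The comparison asks which of these adhesion genes differ in the shelf before elevation when Col2Cre is present.

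Recovered totals were 29025089 to 32437977 reads per library. Yap1 averaged 8463 ± 277 normalised counts in mutants and 9610 ± 429 in controls (SD, n = 4 each), with every mutant below every control (exact two-sided permutation p = 0.0286, the smallest that 4 against 4 allows). Wwtr1, the gene for TAZ, averaged 4007 ± 397 in mutants and 4879 ± 352 in controls (exact two-sided permutation p = 0.0571). Neither passed the test across all genes (limma adjusted p = 0.751 for both). Markers of palatal mesenchyme were present in every library. They summed to 67916 to 83957 normalised counts in mutants and 72125 to 81327 in controls. The anterior marker Msx1 was at 34.0 to 80.4 in mutants and 54.4 to 131.6 in controls. Shox2, also an anterior marker and chosen after its values were seen, was at 387.0 to 780.5 in mutants and 400.1 to 1056 in controls. Mutant replicate 2 stood apart: its epithelial markers summed to 50180 against 28529 to 36100 in the other mutants and 25837 to 36936 in controls, its osteogenic markers to 8313 against 11904 to 22009 in the other mutants and 20177 to 28365 in controls, and it had 840.4 normalised counts of Xist against at most 17.4 elsewhere. Endothelial markers summed to 12272 in mutant replicate 2, 14860 to 16321 in the other mutants and 16245 to 17687 in controls; all 8 were lowest in mutant replicate 2, and 7 had lower means in mutants. In bulk tissue, fewer cells of a type and less RNA per cell cannot be told apart.

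No integrin or adaptor gene passed the test of mutants against controls. Of the 36 genes, 33 reached 10 normalised counts in 4 or more of the 8 libraries and were tested; 19 had a lower and 14 a higher mean on the log2 scale in mutants, and 0 were called lower and 0 higher (limma, Benjamini-Hochberg adjusted over all genes at 0.05; smallest adjusted p = 0.754). Over all 16647 genes tested, 0.0240% were called lower and 0% higher. Without adjustment 3 of the 33 had p below 0.05, against 6.57% of all genes: Itga10 had a lower mean in mutants, against 3.79% of all genes, and Itga2b and Itgb4 had higher means, against 2.78%. On recovered reads edgeR called 0 of the 33, against 0.0300% of all genes. DESeq2 also called 0, against 0.221% (0.199% lower and 0.0214% higher) of the 14046 genes to which it gave an adjusted p. It gave none to Itgam and Itgb2. Both edgeR and DESeq2 put 3 of the 33 below an unadjusted 0.05, against 6.24% of all genes in edgeR and 6.65% in DESeq2. The median log2 difference of the 33 was -0.014, against -0.00015 over all genes tested, and the median size of the difference, whatever its sign, was 0.11 in both. Only Fermt2 had no overlap between the groups (1 of 33 genes), against 3.77% of all genes tested.

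**Figure D1:**
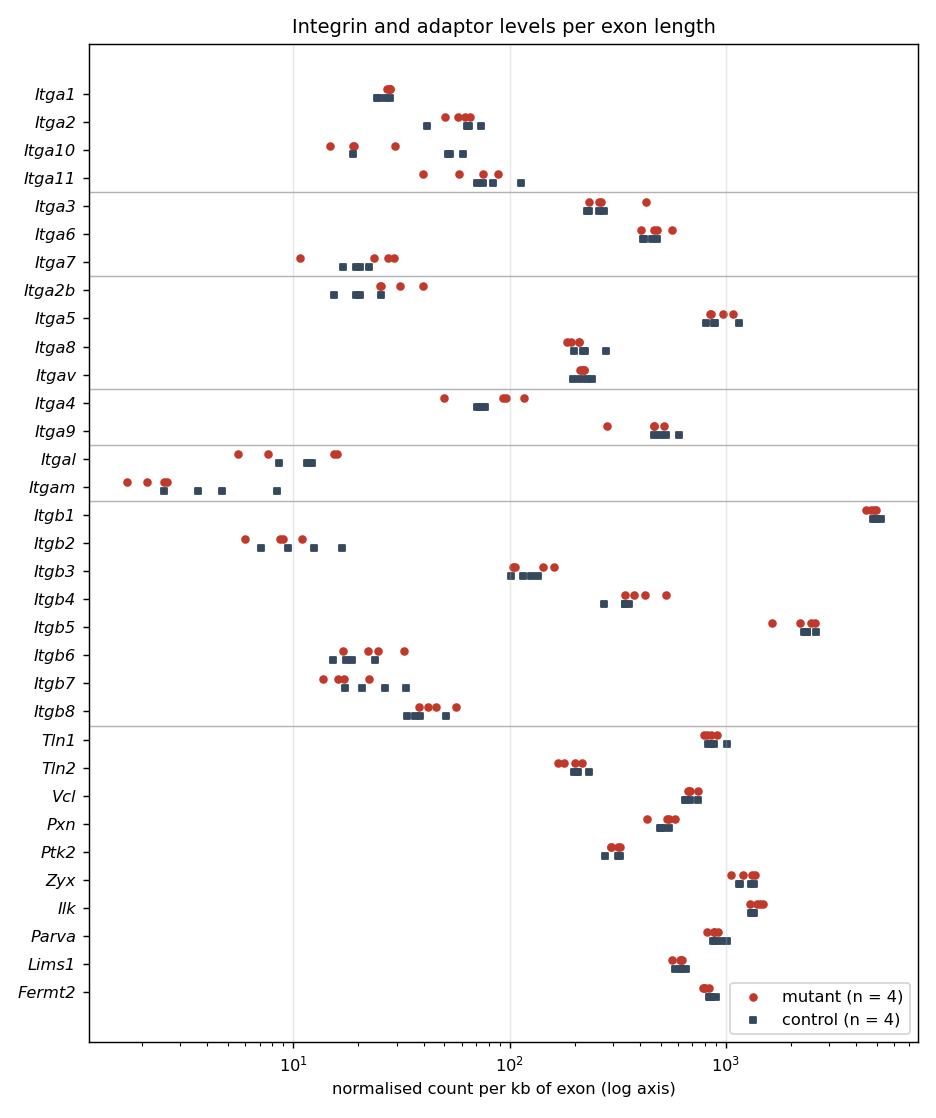
Normalised count per kb of exon (log axis) of the 33 tested genes, grouped by role, with 4 mutant libraries as circles above 4 control libraries as squares. Itgb1 sits near 4729 in mutants and 4985 in controls per kb, and groups overlap for every gene except Fermt2.

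Levels per exon length put the fibronectin receptor first among the alpha subunits and Itgb1 first among the beta subunits. Divided by the kb of annotated exon, Itgb1, the beta subunit shared by most matrix receptors, stood at 4729 ± 216 normalised counts per kb in mutants and 4985 ± 169 in controls (SD, n = 4 each). It made up 62.4% ± 2.04 of the summed beta subunit level per kb in mutants and 62.8% ± 1.29 in controls. Itgb5, which pairs with the alpha-v subunit, followed with 29.1% ± 3.63 in mutants and 30.4% ± 1.23 in controls, and Itgb4, the beta subunit of epithelial hemidesmosomes, with 5.56% ± 1.49 and 4.13% ± 0.440 in mutants and controls. The other 5 beta subunits each held at most 2.14% in any library. Among alpha subunits, Itga5, the fibronectin receptor subunit, held 32.4% ± 2.94 of the summed level per kb in mutants and 31.5% ± 2.46 in controls. Itga6, a laminin receptor subunit, held 16.6% ± 2.66 in mutants and 15.1% ± 0.496 in controls. Lengths joined all annotated exons of a gene, whichever transcripts were present, and the shares depend on them. Before division Itga5 averaged 4617 and Itga6 4323 normalised counts in mutants, with lengths of 4.93 and 9.03 kb. Itga9, which binds tenascin and related ligands, held 14.9% ± 3.33 in mutants and 17.8% ± 0.789 in controls. Mutant replicate 2 gave the lowest Itga9 share of the 8 libraries and the highest Itga6 share. Adaptor transcripts lay between 191 and 1404 normalised counts per kb in mutants and between 211 and 1330 in controls, with Ilk highest and Tln2 lowest in both groups.

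The collagen-binding alpha subunits Itga1, Itga2, Itga10 and Itga11 included the largest difference of the family. Itga10 (ENSMUSG00000090210, chromosome 3 from 96645584 to 96664519), a collagen receptor subunit characteristic of cartilage, had 152.7, 76.7, 98.4 and 99.1 normalised counts in mutant replicates 1 to 4, against 317.3, 276.3, 97.5 and 268.1 in control replicates 1 to 4. Control replicate 3 lay among the mutants, and the other 3 controls lay above all of them. The log2 difference was -1.07 (SE 0.358, 95% interval -1.86 to -0.29, limma adjusted p = 0.754 over all genes), and it was -1.46 without control replicate 3 and -0.93 without mutant replicate 2. Cartilage markers, of which 8 of 9 tested had lower means in mutants, summed to 8088 to 14995 normalised counts in mutants and 9910 to 20991 in controls. The sum was highest in control replicate 1 and lowest among controls in control replicate 3. Mutant replicate 1, at 14995, was above control replicates 2 (12215) and 4 (11799) in that sum, while its Itga10 was below theirs. All 9 tested osteogenic markers had lower means in mutants, with sums of 8313 to 22009 in mutants and 20177 to 28365 in controls. Among the osteogenic markers Bglap had 0 reads in every library and Bglap2 in every library but mutant replicate 3. The part of either cell type in the Itga10 value was not tested.

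Itga11, the collagen receptor subunit of fibroblasts, had 455.1, 203.5, 298.1 and 385.4 normalised counts in mutants and 580.3, 387.5, 428.8 and 361.4 in controls. The groups overlapped, and mutant replicate 2 was the lowest library. Its log2 difference of -0.43 (SE 0.236) became -0.21 without mutant replicate 2. Itga1 was the steadiest of the integrin genes within the mutants, with 516.4, 518.7, 519.1 and 505.7 normalised counts, against 518.6, 452.0, 494.5 and 459.6 in controls, differing by 0.10 on the log2 scale (limma adjusted p = 0.881). Itga2, best known from platelets and epithelia, averaged 420 ± 46.0 in mutants and 435 ± 98.1 in controls (SD, n = 4 each).

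The laminin receptor subunits Itga3, Itga6, Itga7 and Itgb4 had higher means in mutants and were all highest in mutant replicate 2; for Itga7 the direction turned without that library. Itga3, an epithelial laminin receptor subunit, had 1334, 2435, 1485 and 1515 normalised counts in mutants and 1555, 1297, 1327 and 1475 in controls. Apart from mutant replicate 2 the mutants lay within the control range, and the log2 difference of 0.22 (SE 0.156, limma adjusted p = 0.813) was 0.033 without that library. Itga6 had 4220, 5077, 3654 and 4342 in mutants and 3773, 4132, 4355 and 3746 in controls, with a log2 difference of 0.10, or 0.024 without mutant replicate 2. Itgb4, which pairs with Itga6 in hemidesmosomes, had 2624, 3705, 2406 and 2965 normalised counts in mutants and 2402, 1915, 2394 and 2510 in controls. Only mutant replicate 3 lay inside the control range of Itgb4. Its log2 difference was 0.33 (SE 0.126, 95% interval 0.057 to 0.61, limma adjusted p = 0.754), and 0.21 without mutant replicate 2. All 12 epithelial markers had higher means in mutants, 11 of them highest in mutant replicate 2, and their part in the Itgb4, Itga3 and Itga6 values was not tested. Itga7, the laminin receptor subunit of muscle, had 221.7, 236.6, 191.0 and 87.0 in mutants and 165.0, 136.7, 180.6 and 157.1 in controls. Its log2 difference of 0.11 (SE 0.293) was -0.041 without mutant replicate 2, -0.010 without mutant replicate 1 and 0.44 without mutant replicate 4. Mutant replicate 4 was the lowest library for Itga7, and it also had the lowest summed level of skeletal muscle markers, 19229 normalised counts against 37153 to 74117 in the other mutants and 38387 to 48489 in controls. That level was highest in mutant replicate 3, where Itga7 was below mutant replicates 1 and 2, and its part in Itga7 was not tested.

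**Figure D2:**
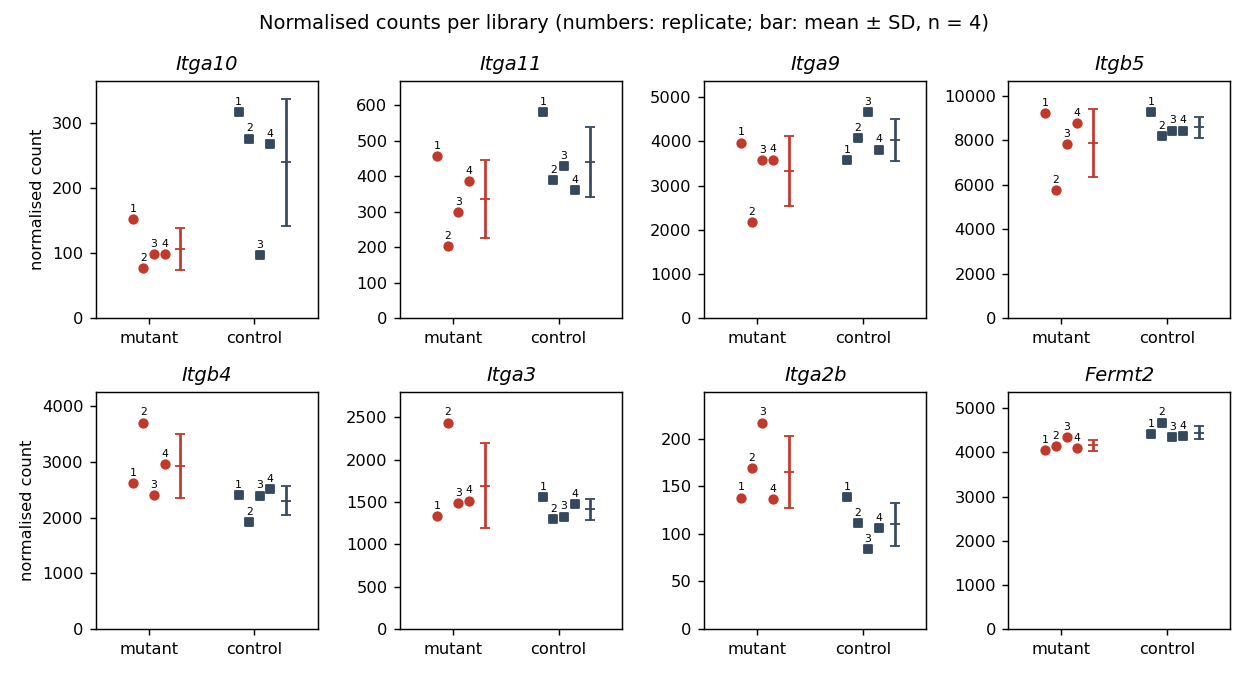
Normalised counts of 8 genes in each library, mutants left of controls, with replicate numbers beside the points and the mean ± SD (n = 4) at the right of each group. Itga10 is low in control replicate 3 (97.5) as well as in mutants, Itgb4 and Itga3 are highest in mutant replicate 2, and Itga9 and Itgb5 are lowest in it.

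Among the RGD-binding alpha subunits, 2 of 4 had lower and 2 higher means in mutants. Itga5 (ENSMUSG00000000555) had 4805, 4151, 5300 and 4212 normalised counts in mutants and 3978, 4403, 5656 and 4358 in controls, a log2 difference of 0.011 (SE 0.108, 95% interval -0.23 to 0.25). Itgav, the alpha-v subunit, averaged 2319 ± 50.5 in mutants and 2348 ± 210 in controls, and its interval for the fold of mutants over controls ran from 0.890 to 1.10. Itga8, the receptor subunit for nephronectin, had 1549, 1412, 1359 and 1551 in mutants and 1649, 1609, 2051 and 1468 in controls, differing by -0.20 on the log2 scale (SE 0.0996, limma adjusted p = 0.773), or by -0.10 without control replicate 3. All controls but control replicate 4 lay above all mutants for Itga8.

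Itga2b, the platelet integrin subunit, had 138.1, 169.4, 217.1 and 136.5 normalised counts in mutants and 138.4, 111.3, 84.1 and 106.1 in controls. Control replicate 1 lay inside the mutant range and the other controls below it. The log2 difference was 0.58 (SE 0.237, 95% interval 0.062 to 1.10, limma adjusted p = 0.754). Megakaryocyte and platelet markers were scarce: 3 of 6 passed the filter, all with higher means in mutants, and the list summed to 136 to 241 normalised counts in mutants and 120 to 189 in controls. Pf4, a platelet chemokine, had 111.9 to 138.2 in mutants and 93.4 to 129.8 in controls. Treml1, a platelet receptor chosen after its values were seen, had 1.9, 18.0, 16.4 and 23.3 normalised counts in mutants and 0.0, 2.0, 0.0 and 0.0 in controls and did not pass the filter. The part of these cells in the Itga2b value was not tested.

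Itga4, which binds fibronectin and Vcam1, had 1638, 1301, 1354 and 696.9 normalised counts in mutants and 1022, 1073, 1058 and 987 in controls. Controls were tight, with a coefficient of variation of 3.71%, while mutants spread to both sides of them at 31.7%. The log2 difference was 0.20 (SE 0.203, limma adjusted p = 0.881), 0.46 without mutant replicate 4 and 0.050 without mutant replicate 1. Schwann cell and glial markers, of which 5 of 6 had higher means in mutants, summed to 6444, 4256, 4318 and 2979 normalised counts in mutants and 2986, 3233, 2978 and 3323 in controls. Their sum, like Itga4, was highest in mutant replicate 1 and narrow among controls. In mutant replicate 4, where Itga4 lay below all controls, the sum lay inside the control range. The part of these cells in the Itga4 value was not tested. Itga9 had 3973, 2168, 3575 and 3587 in mutants and 3580, 4066, 4664 and 3811 in controls, differing by -0.31 on the log2 scale (SE 0.159, limma adjusted p = 0.773). The low library was again mutant replicate 2, without which the difference was -0.11. Gm2415, an antisense RNA, averaged 590 normalised counts in mutants and 698 in controls. It shares 10929 bp, introns included, with the Itga9 gene, which runs from 118606690 to 118901003. Whether counting used strand is not stated, so reads from any exon sequence in that shared stretch cannot be told apart.

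Leukocyte integrins were near the lower limit. Itgad had 0 reads in all 8 libraries, which allows up to 3 reads in a library by counting error alone. Itgae had 0.0 to 7.1 normalised counts in mutants and 1.0 to 11.7 in controls, and Itgax 0.0 to 11.6 in mutants and 0.0 to 7.5 in controls, so neither was tested. Itgam, a macrophage and granulocyte subunit, had 12.6, 8.5, 10.6 and 13.1 in mutants and 18.1, 12.7, 23.6 and 42.2 in controls, differing by -0.93 on the log2 scale (SE 0.528, limma adjusted p = 0.774). Itgb2, the beta subunit of these receptors, had 27.2, 26.5, 18.3 and 33.4 in mutants and 51.1, 38.1, 28.7 and 21.6 in controls. Itgal, the lymphocyte alpha subunit that pairs with it, had 101.1, 105.1, 50.2 and 36.4 in mutants and 77.7, 56.6, 75.9 and 80.5 in controls, the mutants lying on both sides of the controls. Leukocyte markers were present and 7 of 9 had higher means in mutants, with sums of 2725 to 3222 in mutants and 2265 to 2913 in controls. Itgb7, found on lymphocytes, had 37.9 to 61.7 in mutants and 47.9 to 92.3 in controls.

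Among the remaining beta subunits, Itgb1 (ENSMUSG00000025809, chromosome 8 from 128685654 to 128733200) had 20102, 18139, 19103 and 19856 normalised counts in mutants and 20446, 20100, 21239 and 19594 in controls. Its log2 difference was -0.077 (SE 0.0532), with a 95% interval for the fold of mutants over controls from 0.875 to 1.03. Itgb5 had 9215, 5776, 7839 and 8764 in mutants and 9274, 8185, 8440 and 8437 in controls. Mutant replicate 2 lay far below the rest, and the log2 difference of -0.14 became 0.0021 without it. Itgb3, the partner of alpha-v on osteoclasts and endothelium and of Itga2b on platelets, averaged 756 ± 164 in mutants and 702 ± 85.0 in controls. Itgb6 and Itgb8, whose pairs with alpha-v release TGF-beta from its latent complex, had higher means in mutants. Itgb6, an epithelial subunit, had 120.6, 230.9, 157.3 and 176.0 in mutants and 108.6, 125.0, 133.4 and 169.9 in controls, and Itgb8 averaged 506 ± 87.5 in mutants and 441 ± 84.5 in controls. Their log2 differences of 0.33 and 0.20 became 0.17 and 0.091 without mutant replicate 2, and neither passed (limma adjusted p = 0.818 for Itgb6 and 0.836 for Itgb8).

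**Figure D3:**
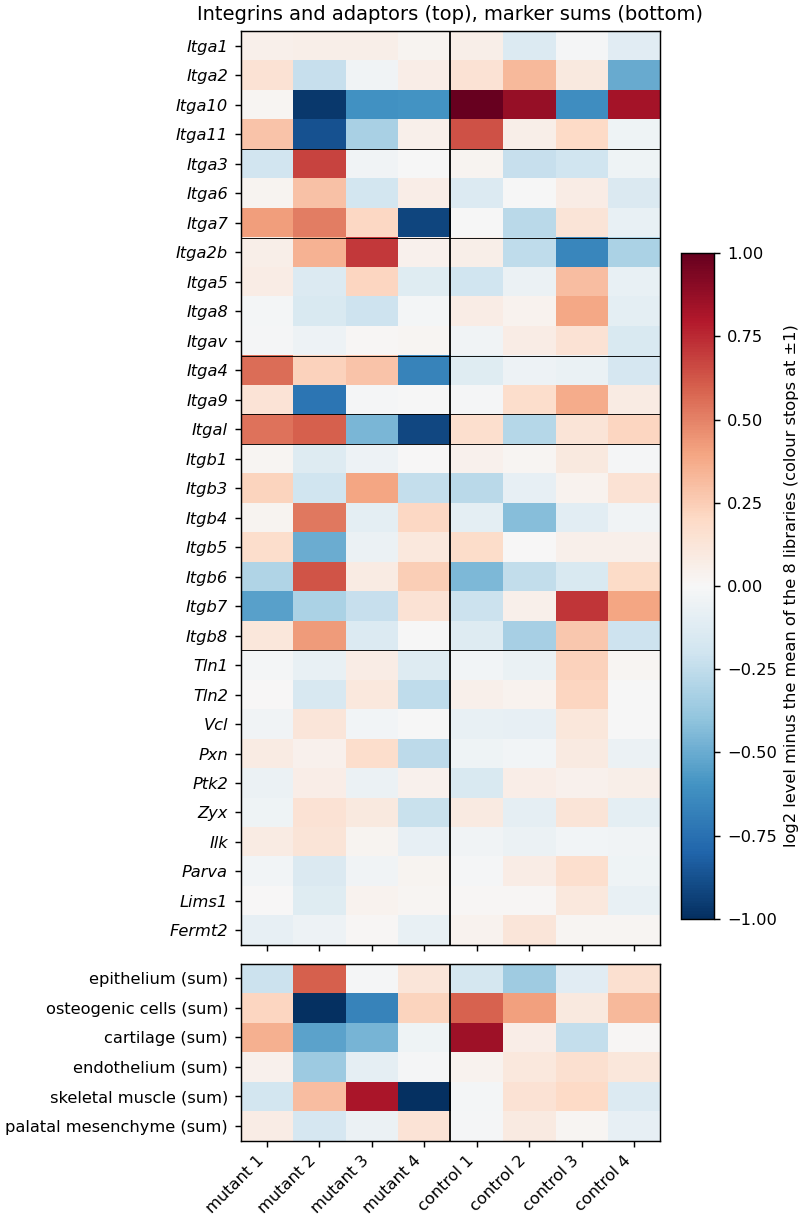
Log2 level of the 31 genes with a mean of at least 50 (top) and of the summed markers of 6 cell types (bottom) in each library, minus the mean of the 8 libraries, with mutants left of the line and controls right of it. Mutant replicate 2 is high for Itga3, Itgb4 and Itgb6 as for the epithelial sum. It is low for Itga9, Itga11 and Itgb5 as for the osteogenic, cartilage, endothelial and palatal mesenchyme sums. The 10 adaptors lie nearer 0 than most integrin subunits.

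Mutant replicate 2 was the highest of the 8 libraries for 11 of the 33 genes and the lowest for 8, against 17.0% and 17.4% of all genes tested, or 34.4% for either. The genes it topped included Itga3, Itga6, Itgb4, Itgb6 and Itgb8, and those for which it was lowest included Itga9, Itga10, Itga11 and Itgb5. It also had the lowest osteogenic, endothelial, cartilage and palatal mesenchyme sums and the highest epithelial sum. The part of these cell types was not tested. Without it, 18 of the 33 genes had lower and 15 higher means in mutants, and the median log2 difference was -0.012.

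For the 10 adaptors, log2 differences ran from -0.15 for Tln2 to 0.077 for Ilk, 7 lower and 3 higher, and all 10 lay within 0.2 of 0, against 69.3% of all genes tested and 79.2% of those with a mean of at least 50. Tln2 passed that limit, at -0.21, without mutant replicate 3. The adaptors had a median SE of 0.0633, against 0.108 for all genes with a mean of at least 50, and genes of like level were not compared. Talins switch integrins on by binding the beta tail: Tln1 had 8379, 8056, 8939 and 7790 normalised counts in mutants and 8334, 8107, 9963 and 8633 in controls, and Tln2 had 3695, 3297, 3961 and 3089 in mutants and 3808, 3770, 4278 and 3663 in controls. The log2 difference of Tln2 was -0.15 (SE 0.0825, limma adjusted p = 0.774), and that of Tln1 was -0.076 (SE 0.0711), or -0.013 without control replicate 3.

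Fermt2, kindlin-2, which binds the beta tail beside talin, was the gene without overlap, by a narrow margin. It had 4059, 4144, 4344 and 4093 normalised counts in mutants and 4410, 4676, 4352 and 4369 in controls, so that mutant replicate 3 and control replicate 3 were nearly equal. Its log2 difference was -0.10 (SE 0.0518, 95% interval -0.21 to 0.015, limma adjusted p = 0.773), and with trimmed-mean or upper-quartile scaling the groups overlapped. Ilk, Parva and Lims1 form the complex that joins kindlin-bound integrins to actin. Ilk had 3959, 4091, 3824 and 3539 in mutants and 3653, 3596, 3681 and 3662 in controls, and mutant replicate 4 lay below all controls while the other mutants lay above them. Parva averaged 8918 ± 432 in mutants and 9518 ± 649 in controls, and Lims1 2968 ± 142 and 3025 ± 151 (SD, n = 4 each).

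Vcl, vinculin, which reinforces talin under load, had 5475, 6102, 5510 and 5616 normalised counts in mutants and 5337, 5325, 6072 and 5618 in controls. Zyx, zyxin, a LIM protein of adhesions and stressed actin fibres, had 6450, 7365, 7145 and 5694 in mutants and 7075, 6275, 7282 and 6211 in controls. For the scaffold Pxn, paxillin, the values were 4489, 4370, 4775 and 3537 in mutants and 4114, 4162, 4497 and 4063 in controls. Ptk2, focal adhesion kinase, had 3487, 3819, 3485 and 3748 in mutants and 3265, 3808, 3748 and 3784 in controls. All 4 overlapped, and the 95% intervals of their log2 differences were -0.11 to 0.16 for Vcl, -0.20 to 0.17 for Zyx, -0.16 to 0.21 for Pxn and -0.15 to 0.14 for Ptk2. Several adaptor genes overlap protein-coding neighbours on the other strand, among them Vcl with Ap3m1 over 2235 bp and Ilk with Taf10 over 3533 bp, so their counts can hold reads of the neighbour.

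**Figure D4:**
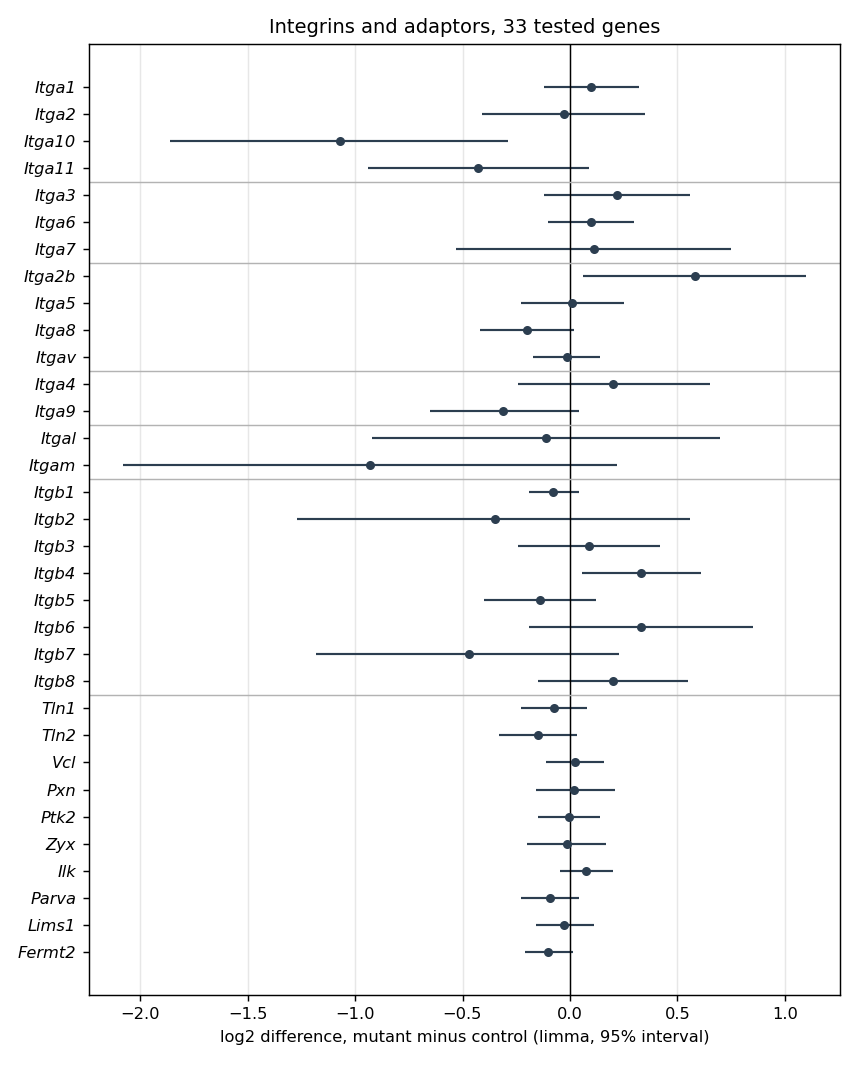
Log2 difference of mutants minus controls with its 95% interval (limma, n = 4 each) for the 33 tested genes, grouped by role. Intervals leave 0 out for Itga10 (below), Itga2b and Itgb4 (above), none of which passes the adjusted threshold, and the 10 adaptors lie between -0.15 and 0.077.

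Because YAP and TAZ reach DNA through TEAD factors, and serum response factor is a known regulator of vinculin and other actin genes, the RefSeq promoters of the members were searched for both motifs. The table held 29 promoters of 24 members (GRCm38.p6, from 250 bases before to 50 after the start). The TEAD core GGAATG or its reverse complement CATTCC stood in 3 of the 29 (10.3%), against 14.7% of all 32851 promoters of that length, and the CArG box of serum response factor, on either strand, in 3 of the 29 (10.3%), against 1.63%. The matches upstream of a start are shown, since they lie by Itga10, the gene with the largest difference, by Itgb1, the most abundant subunit, and by 2 adaptors. Capitals mark the motif, 5′ to 3′ on the strand of the gene.
Itga10 TEAD core, + strand of chr3:96645497-96645526: caccaccactccCATTCCatccaactttat
Itgb1 TEAD core, + strand of chr8:128685624-128685653: aggcgcggctgacgcggcgcggaGGAATGc
Vcl TEAD core, + strand of chr14:20929243-20929272: gcccctcccttgGGAATGggggcggggcgg
Vcl CArG box, + strand of chr14:20929161-20929190: cccactatgcCCTTATAAGGagcgccccgc
Fermt2 CArG box, - strand of chr14:45530250-45530279: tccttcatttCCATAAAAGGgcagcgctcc
Itgb6 CArG box, - strand of chr2:60673724-60673753: cacctgacttCCTTATAAGGtgaatgagga
Vcl was the only member with both motifs, and its log2 difference was 0.023. The Itgb6 match lies 50 bases before a second start, 48950 bases inside the gene. A match to these letters is a description and not a binding site.

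The wider plaque showed no called gene either. All 38 other focal adhesion genes listed were tested: 22 had lower and 16 higher means in mutants, 0 were called in either direction, and 33 lay within 0.2 of 0 on the log2 scale, with a median of -0.018. Tns2, a tensin, averaged 4831 ± 477 normalised counts in mutants and 5576 ± 298 in controls, without overlap (log2 difference -0.21, limma adjusted p = 0.754). Lpp, a zyxin relative, averaged 2376 ± 254 in mutants and 2776 ± 230 in controls. Fermt1, the kindlin of epithelia, had 421.1, 671.0, 505.6 and 635.2 in mutants and 416.3, 445.1, 425.8 and 427.2 in controls, differing by 0.36 on the log2 scale (SE 0.147, limma adjusted p = 0.754), 3 of the 4 mutants lying above all controls. It was highest in mutant replicate 2, as the epithelial markers were. Actn1, the actin crosslinker alpha-actinin, and the kinase Src had log2 differences of -0.13 and 0.12.

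Of 35 integrin ligands listed, 26 had lower means in mutants, against 8330 of all 16647 genes tested, and 9 had higher ones. Mutant replicate 2 was the lowest library for 12 of the 35, and without it 23 were lower in mean and 12 higher. Without control replicate 3, Spp1, Tnc, Postn, Edil3, Lama1, Lama2, Lamb1 and Lamc1 moved from below to above 0, at 0.02 to 0.38. Tgfb3 moved the other way, to -0.021. These genes were chosen after their values were seen. With all libraries, the median log2 difference of the 35 was -0.14, and 0 were called by limma, against 0.0240% of all genes tested. DESeq2 on recovered reads called 1, Ibsp (DESeq2 adjusted p = 0.0448), against 0.221% of all genes to which it gave an adjusted p. Ibsp, bone sialoprotein, an RGD ligand of alpha-v integrins in bone, had 2435, 726.9, 1486 and 5680 normalised counts in mutants and 23279, 19064, 6533 and 17749 in controls. Every mutant lay below every control, the nearest being mutant replicate 4 and control replicate 3, and the log2 difference was -2.94 (SE 0.535, limma adjusted p = 0.267). The log2 differences of the receptor subunits Itgav and Itgb3 were -0.014 and 0.088. Npnt, nephronectin, the ligand of the Itga8 receptor, had 7834, 4303, 6615 and 7100 in mutants and 8384, 7328, 10629 and 7911 in controls (log2 difference -0.43, SE 0.165, limma adjusted p = 0.754), or -0.24 without mutant replicate 2. Mutant replicate 1 lay inside the control range of Npnt.

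Cyr61, a matricellular ligand and known YAP target, had 1405, 1618, 1425 and 1511 in mutants and 1945, 1795, 1690 and 1736 in controls. Its groups did not overlap (log2 difference -0.27, SE 0.0736, limma adjusted p = 0.751). For Ctgf, also a known YAP target and chosen after its values were seen, the groups overlapped. The log2 difference of Ctgf was -0.18 (SE 0.126, limma adjusted p = 0.816). Collagen ligands Col1a1 and Col2a1 had log2 differences of -0.36 and -0.62, and Vcam1, the counter-receptor of Itga4, one of -0.48 (limma adjusted p = 0.754 for each of the 3). Without mutant replicate 2 they were -0.23 for Col1a1, -0.36 for Col2a1 and -0.29 for Vcam1. Col3a1, a further fibrillar collagen chosen after its values were seen, had a log2 difference of 0.036. Lama5, a laminin chain of epithelial basement membranes, had 3942, 6746, 4674 and 4520 normalised counts in mutants and 3264, 2982, 4641 and 3892 in controls. The groups overlapped, and mutant replicate 2 was the highest library, as it was for Itga3, Itga6 and Itgb4. The log2 difference of Lama5 was 0.42 (SE 0.162, limma adjusted p = 0.754), and 0.26 without mutant replicate 2.

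**Figure D5:**
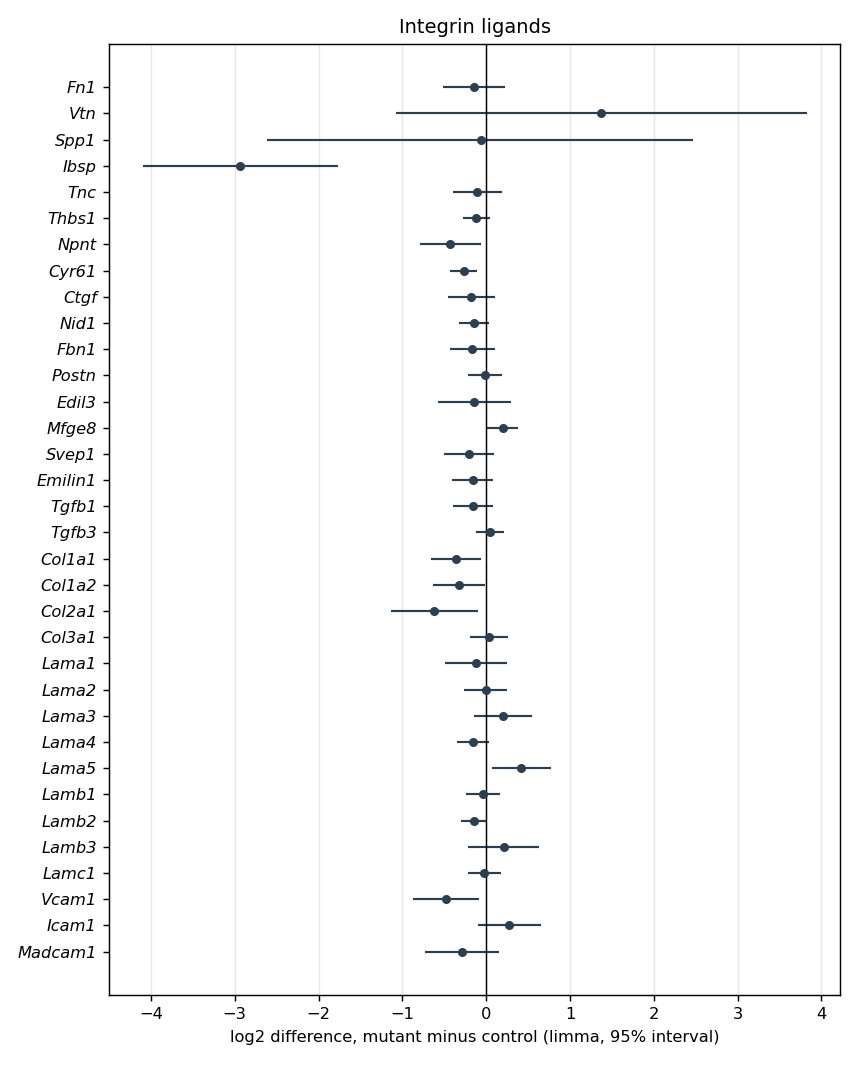
Log2 difference of mutants minus controls with its 95% interval (limma, n = 4 each) for integrin ligand genes. Ibsp lies lowest at -2.94, Lama5 lies above 0 at 0.42, and the intervals of Vtn and Spp1 are the widest.

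Membrane partners of integrins gave 3 lower and 6 higher means among 9 tested, and 0 were called by limma, against 0.0240% of all genes tested. Cd47, which binds thrombospondin and associates with alpha-v and beta-3, had 2388, 2570, 2774 and 2604 normalised counts in mutants and 2918, 2883, 2730 and 3016 in controls (log2 difference -0.16, SE 0.0631, limma adjusted p = 0.754). Lrrc32, which presents latent TGF-beta to the beta-6 and beta-8 integrins, averaged 3850 ± 764 in mutants and 3080 ± 305 in controls (log2 difference 0.31, and 0.18 without mutant replicate 2). Cd151, the tetraspanin of laminin-binding integrins, averaged 2066 ± 200 and 1873 ± 144 in mutants and controls.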

How the data were processed

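RNA-seq of 8 libraries (4 mutant, 4 control) was read from the deposited table. The authors' normalised counts are a signal, gene reads scaled by the size factor of each library, with 1 decimal kept, per the file headers; the submitters' processing notes name STAR 2.7.2 and DESeq2, and no counter, strand setting or build is stated in the sources used here. The deposited log2 values are variance-stabilised and served in 1 alternative. A step per library turned 100% of values from 50 to 5000 into whole reads within 0.06, where rounding alone gives 12%; in mutant replicate 4 the step is close to 1 and was found from the higher values. Gene positions equalled GENCODE M21 (GRCm38) for 95.2% of 52489 IDs, and its exons gave lengths.

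limma 3.58.1 in R 4.3.3 was fitted to log2(normalised count + 1) with a variance trend and genotype as the only term, on 16647 genes with at least 10 in at least 4 libraries, two-sided, Benjamini-Hochberg adjusted at 0.05; Yap1 and Wwtr1 also had exact permutation tests. Alternatives were pseudocounts, filters, scalings, the stabilised values, a block, leaving out each library, and edgeR 4.0.16 and DESeq2 1.42.0 on recovered reads. The fit was tested on simulated data. All members could be named; of other lists, up to 8 genes with the smallest p. Members and lists were chosen with earlier results of these data known. Some genes of these lists are not reported here.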

Additional observations from a re-analysis of the deposited data

Results flagged for a closer look

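A library far from the other 3 of its group was found in 2 of 70 groups examined by Dixon's test, where chance flags about 5 in 100. Itga3 in mutants was flagged for mutant replicate 2, at 2435 normalised counts against 1334 to 1515 in the other mutants (gap over range 0.836). Ptk2 in controls was flagged for control replicate 1, at 3265 normalised counts against 3748 to 3808 in the other controls (gap over range 0.889).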

How the results depend on the processing

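In all 18 alternatives 0 of the 33 genes passed, 20 kept their direction in all, and the lowest adjusted p was 0.125 (limma without control replicate 3). Calls over all genes numbered 31 in DESeq2 against 4, and 0 to 11 with 1 library left out. Genes without overlap numbered 0 under trimmed-mean or upper-quartile scaling and 1 to 6 with 1 library left out; the 6, without mutant replicate 4, were Itga4, Itga7, Itgam, Itgb7, Ilk and Fermt2, against 6.98% of all genes. The median difference ran from -0.057 to 0.0087 with 1 library left out. With the first title number as a replicate block it was -0.095, 25 of 33 genes were lower in mutants, and 6 genes were called over all. Mutant replicate 1 and control replicate 1 are each alone with their number, so they add nothing to the genotype difference of that fit. In it Itga4 (-0.12), Itga5 (-0.16), Itga7 (-0.26), Itgb3 (-0.10), Pxn (-0.10) and Vcl (-0.014) changed sign. Tln1 was at -0.17 and Tln2 at -0.25 under the block. The 4 mutant and control pairs sharing a number correlated at -0.00774 to 0.1, so the number is not shown to pair them. Itgal was at 0.011 in DESeq2 and 0.013 in edgeR. With 1 library left out, log2 differences ran from -0.20 to 0.075 for Itga2, 0.050 to 0.46 for Itga4, -0.058 to 0.11 for Itga5, -0.041 to 0.44 for Itga7, -0.33 to 0.17 for Itgal, -0.067 to 0.032 for Itgav, -0.028 to 0.18 for Itgb3, -0.22 to 0.0021 for Itgb5, -0.057 to 0.0071 for Lims1, -0.058 to 0.016 for Ptk2, -0.033 to 0.11 for Pxn, -0.012 to 0.064 for Vcl and -0.064 to 0.059 for Zyx. The cause was not tested. Depth limits Itgam, Itgad, Itgae and Itgax most.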

Other observations

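Mutant replicate 4 was the lowest of the 8 libraries for 8 of the 33 genes, among them Tln1, Tln2, Pxn, Zyx and Ilk, and the highest for 0. Control replicate 3 was the highest for 10, among them Itga5, Itga8, Itga9, Itgb1, Tln1, Tln2 and Parva, and the lowest for 1. Over all genes tested these libraries were lowest in 13.1% and highest in 14.4%.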
